A study of Mus musculus with 22 samples.

Results

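Aquaporins are membrane channels for water, and some of them also pass glycerol. RNA of 7 aquaporin genes, Aqp1, Aqp3, Aqp4, Aqp5, Aqp7, Aqp8 and Aqp11, was followed across 6 cell types sorted from mouse colon crypts. The genes were picked by name, with earlier results of these data known, out of the 24421 genes with a count in each library. The cells came from the colons of wild type, untreated male C57BL/6N mice of 5 to 7 weeks. All were live and Epcam+, Cd31- and Cd45-, and they were split by the surface proteins Cd44, Cd24 and Ckit. Stem cells (Stem, 3 libraries) had the highest Cd44, with low Cd24 and no Ckit. Absorptive progenitors (AbsPro, 3 libraries) had medium to high Cd44, low Cd24 and no Ckit. The SecPDG sort (4 libraries) is for the most part deep crypt secretory cells and progenitors of the secretory line, perhaps with a few goblet cells. It is labelled as high in Cd44 and medium in Cd24 and Ckit, while the study's text calls its Cd44 medium and describes Kit protein on tuft cells alone. Tuft cells (5 libraries) were Ckit+ with high Cd24, enterocytes (Ent, 5 libraries) were low or negative for Cd44 and negative for Cd24, and enteroendocrine cells (EEC, 2 libraries) were low or negative for Cd44 and positive for Cd24. A library is 1 mouse for Stem and AbsPro and a pool of several mice for the other cell types, from independent sorts.

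The colon takes up most of the water that reaches it, and the water follows the salt that the epithelium moves. Aqp1, Aqp4, Aqp5 and Aqp8 are water channels in the strict sense. Aqp3 and Aqp7 are aquaglyceroporins, which carry glycerol as well, and Aqp11 is a distant member of the family that resides in the endoplasmic reticulum. Aqp8 is a known product of colon surface cells, Aqp1 is best known from red cells and the endothelium of vessels, and Aqp4 from the end feet of astrocytes in the brain.

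On the mm10 genome (GRCm38), Aqp1 lies on the plus strand at chr6:55336432-55348555, Aqp8 on the plus strand at chr7:123462291-123468004, and Aqp11 on the minus strand of the same chromosome at chr7:97724006-97738289. Aqp3 (chr4:41092722-41098183) and Aqp7 (chr4:41033074-41048139) are neighbours on the minus strand with 44582 bases between them. Aqp5 (chr15:99590782-99594829, plus strand) stands between Aqp2 and Aqp6, with 6234 bases to the former and 6570 to the latter. An annotated antisense gene overlaps Aqp4. Since the reads were counted without regard to strand, reads of Aqp4 and of that antisense gene cannot be told apart where their exons overlap. The overlap was found between whole genes, and whether exons overlap was not checked. No other member overlaps an annotated gene.

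The promoters of Aqp1 and Aqp8 are shown because, of the 4 members abundant enough to be called, these differed most between stem cells and enterocytes, in opposite directions. Each run holds the 250 bases before and the 50 bases after the transcription start that RefSeq gives on GRCm38.p6, at chr6:55336049-55336348 and chr7:123462044-123462343, both on the plus strand. The Aqp1 window ends before the gene start given above (chr6:55336432). Against that annotation it lies wholly upstream of the gene, and the bases next to that start were not searched. Matches to any of 4 short motifs, searched on both strands, are in capitals.
Aqp1 promoter: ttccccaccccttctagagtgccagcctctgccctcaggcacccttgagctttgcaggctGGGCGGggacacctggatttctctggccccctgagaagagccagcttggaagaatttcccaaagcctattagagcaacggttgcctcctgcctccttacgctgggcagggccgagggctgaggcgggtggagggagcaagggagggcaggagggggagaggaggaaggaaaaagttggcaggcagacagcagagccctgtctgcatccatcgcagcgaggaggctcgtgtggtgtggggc
Aqp8 promoter: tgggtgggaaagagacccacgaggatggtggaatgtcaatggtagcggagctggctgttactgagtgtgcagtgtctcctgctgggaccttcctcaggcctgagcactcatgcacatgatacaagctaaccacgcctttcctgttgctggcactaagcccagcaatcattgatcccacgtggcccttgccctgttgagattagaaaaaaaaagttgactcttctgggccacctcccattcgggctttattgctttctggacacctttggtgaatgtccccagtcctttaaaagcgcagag
The Aqp1 window held 1 GC box, spelled GGGCGG, which 35.7% of the 32851 promoters of this length hold. Neither window held a TATA box, spelled TATAAA and present in 13.6% of all promoters. The core of TCF/LEF sites, spelled TCAAAG and present in 16.003% of promoters, was in neither of them. Nor was TTTATG, a spelling of the core of CDX sites, which 11.9% of promoters hold. Other spellings were not searched. None of these motifs overlapped another in these windows. The windows had 8 and 6 CpG dinucleotides, near the median of 7 over all promoters. The counts per gene carry no measurement of these windows.

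Counts on genes ranged from 4122122 (EEC 1) to 22462518 (Stem 2) per library, with 15314543 or more in each Stem, AbsPro and SecPDG library and at most 12966128 in each Ent library. Summed markers, in normalized counts (counts scaled to 1 effective library size), matched the labels for stem cells (11511 to 15667 in Stem, at most 6598 elsewhere), tuft cells (23339 to 62723 in Tuft, at most 7717 elsewhere) and EECs (597387 to 1716160 in EEC, at most 27078 elsewhere). The goblet and deep crypt secretory markers were high in SecPDG (821521 to 3238460) and also in Tuft (783602 to 1181320). They were lower in Ent (237279 to 710443), AbsPro (90872 to 280420) and EEC (37416 and 62144), and lowest in Stem (21439 to 35063). The enterocyte markers were 49158 to 74312 in Ent and 67128 to 102611 in AbsPro, and in EEC they were 21967 in library 1 and 132924 in library 2. Background was read from 1539 genes of odorant, vomeronasal and trace amine receptors, keratin-associated proteins and gamma crystallins. These families were taken as not transcribed in colon epithelium, and whether single members are was not checked. Background counts were 13.1 to 157 CPM (counts scaled by the library total) in Stem, AbsPro and SecPDG. The range was 181 to 1489 in Tuft and 785 to 3953 in Ent, with 7126 in EEC 1 and 626 in EEC 2.

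Aqp1 led the family in Stem, SecPDG and Tuft, Aqp4 had the larger mean share in AbsPro, and Aqp8 and Aqp4 led in Ent. Per kilobase of exon, the scale on which genes can be compared, Aqp1 made up 66.4% ± 1.297 (SD, n = 3) of the summed level of the 7 genes in Stem, 78.3% ± 2.54 (n = 4) in SecPDG and 77.4% ± 5.91 (n = 5) in Tuft. In AbsPro, Aqp4 was the larger share with 56.9% ± 10.6 (n = 3), and Aqp1 had 32.7% ± 12.03. The lowest Aqp4 share there was 46.45% and the highest Aqp1 share 46.52%, and Aqp8 had 4.07% ± 3.45. In Ent, Aqp8 held 45.9% ± 11.7 and Aqp4 43.8% ± 15.2 (n = 5), while Aqp1 held 2.36% ± 0.567. The EEC libraries differed from each other, with an Aqp8 share of 12.035% in EEC 1 and 92.6% in EEC 2. The sum itself was 1677 ± 124 normalized counts per kilobase in Stem and 1811 ± 369 in Ent, with 1415 ± 303 in AbsPro between these and 999 ± 212 in SecPDG and 899 ± 264 in Tuft. The EEC libraries were apart here too, at 444 and 1622. The goblet and deep crypt secretory markers of Tuft (783602 to 1181320) overlapped those of SecPDG (821521 to 3238460). The part of such cells in the Tuft levels was not tested. In bulk samples, fewer cells that express a gene and less RNA per cell cannot be told apart.

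**Figure D1:**
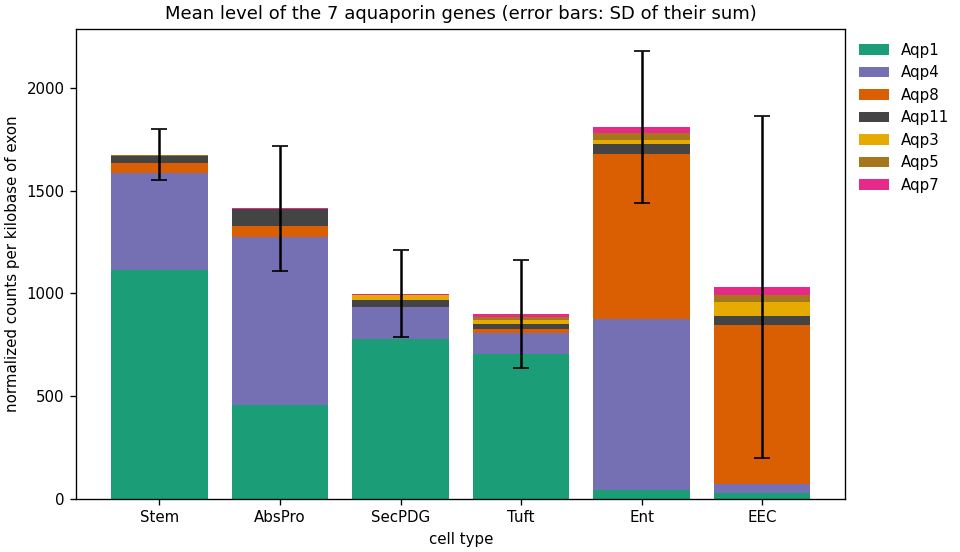
Mean level of the 7 aquaporin genes in normalized counts per kilobase of exon (vertical axis), stacked by gene for each of the 6 cell types, with the SD of the summed level as an error bar. Aqp1 fills most of the Stem, SecPDG and Tuft bars, Aqp4 most of the AbsPro bar, and Aqp4 and Aqp8 nearly all of the Ent bar.

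Aqp1, which was abundant in stem cells, was nearly lost in enterocytes and EECs. The Stem libraries had 2940.5, 2719 and 3114 normalized counts. SecPDG had 2301, 1475, 2308 and 2094, and AbsPro had 1141, 1673 and 791. The 5 Tuft libraries ranged from 1060.4 to 2426 with a median of 2212, and all Stem libraries stood above all SecPDG, AbsPro and Tuft libraries. The 5 Ent libraries ranged from 79.2 to 149 with a median of 99.5, and the EEC libraries had 119 and 25.5. Every Ent and EEC library was below every library of the other 4 cell types.

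By edgeR's quasi-likelihood test over all genes, Aqp1 was 26.6-fold lower in Ent than in Stem (log2 fold change -4.73 ± 0.37 SE, adjusted p = 9.0e-15) and 45.2-fold lower in EEC (log2 fold change -5.50 ± 0.60, adjusted p = 1.0e-10). It was also called lower in Ent and EEC than in AbsPro, SecPDG and Tuft, in all 8 comparisons of this kind. Between Ent and AbsPro, the mature and the progenitor cells of the absorptive line, the difference was 10.9-fold (adjusted p = 1.9e-09). The drop from Stem to AbsPro was not called (log2 fold change -1.28 ± 0.34, adjusted p = 0.033), although the groups did not overlap. It was called in a fit of these cell types alone (adjusted p = 0.0026), without EEC 1 (0.0069), without EEC 2 (0.0076) and after background reads were taken off (0.0078). In the order of its levels, Stem, SecPDG, Tuft, AbsPro, Ent and EEC, only the step from AbsPro to Ent was called between neighbours. SecPDG and Tuft changed places with DESeq2's size factors or library totals.

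Endothelial cells and red cells carry Aqp1, so their markers were read beside it. The summed level of 5 endothelial markers (Pecam1, Cdh5, Kdr, Vwf, Plvap) was 74.3 to 164 normalized counts in Stem. AbsPro libraries had between 37.4 and 168, SecPDG libraries between 92.6 and 307 and Tuft libraries between 297 and 812. The sum was 489 to 1211 in Ent and 1341 to 2034 in EEC. None of the 5 was at 0 in all libraries of a cell type. The 5 red cell markers summed to 22.4 to 65.8 in Stem, 401 to 3088 in EEC and at most 101 in each other library. In Stem, AbsPro, SecPDG, Tuft and EEC this was Alas2 alone, with the 4 globin genes at 0 in every library. In Ent only Hbb-bs of the globin genes had reads. The globin genes are near-identical copies whose reads the counting may have dropped. The part of either cell type in the Aqp1 levels was not tested. Of the Aqp1 level, the estimated background was under 0.4% in Stem, AbsPro, SecPDG and Tuft, 11.6% in Ent and 22.03% in EEC.

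**Figure D2:**
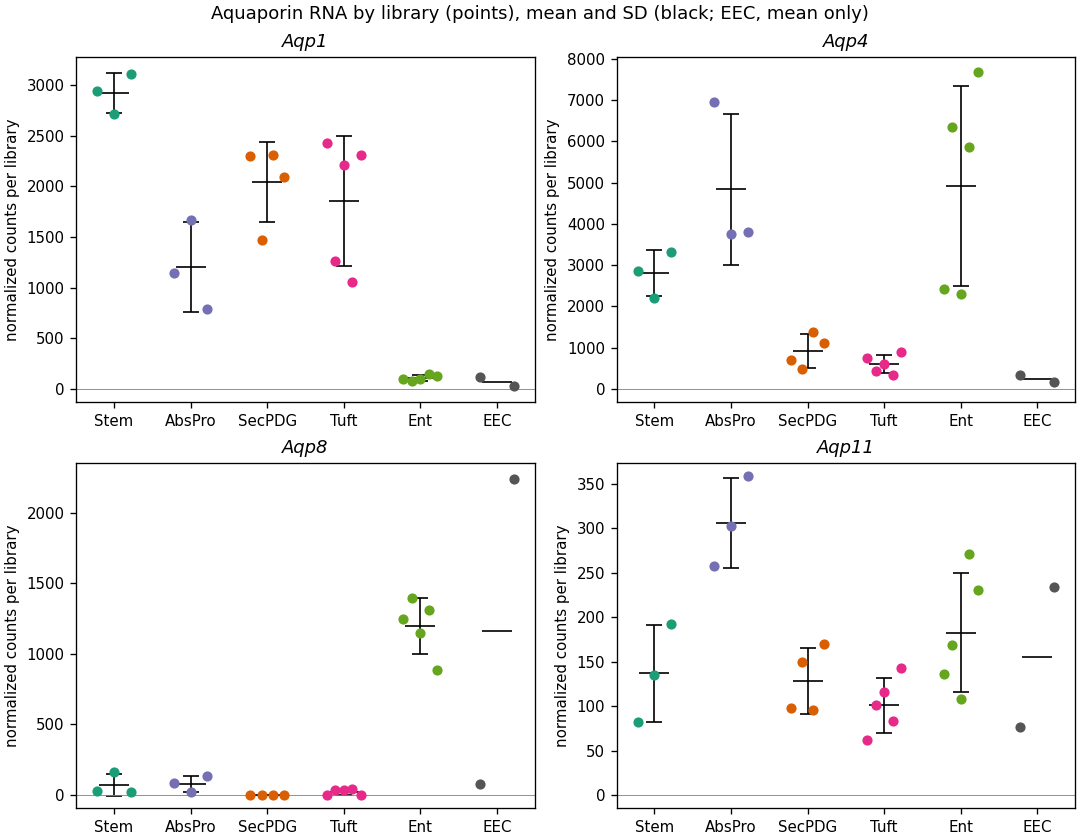
Normalized counts (vertical axes, linear) of Aqp1, Aqp4, Aqp8 and Aqp11 in each library (points) of the 6 cell types, with mean and SD in black and only the mean for the 2 EEC libraries. Aqp1 falls from 2719 or more in Stem to 149 or less in Ent, Aqp8 does the reverse, and the EEC libraries lie apart for Aqp8.

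Aqp4 followed the absorptive line and was low in the secretory cell types. Stem libraries had 2862, 2214 and 3321 normalized counts, and AbsPro libraries 6938, 3755 and 3811. Ent ranged from 2308 to 7664 with a median of 5854, and its libraries fell into 2419 and 2308 on the one hand and 5854 to 7664 on the other. The low ones were Ent 1 and Ent 3, at 3903 and 3953 CPM of background, while Ent 2, at 3106 CPM, had 6337. The part of the background in this split was not tested. SecPDG had 698, 481, 1385 and 1111, Tuft ranged from 346 to 903 with a median of 600.3, and EEC had 342 and 169. All AbsPro, Stem and Ent libraries were above all SecPDG, Tuft and EEC libraries.

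Against Stem, Aqp4 was 3.02-fold lower in SecPDG (log2 fold change -1.59 ± 0.38, adjusted p = 0.0026), 4.59-fold lower in Tuft (-2.20 ± 0.37, adjusted p = 6.6e-06) and 11.4-fold lower in EEC (-3.51 ± 0.59, adjusted p = 3.4e-06). The SecPDG call was lost without Stem 1 (adjusted p = 0.013), Stem 3 (0.018), SecPDG 1 (0.020) or SecPDG 2 (0.030), and in the older quasi-likelihood form (0.015). Relative to AbsPro it was 5.22-fold lower in SecPDG, 7.93-fold in Tuft and 19.7-fold in EEC. Ent stood 5.30-fold above SecPDG, 8.06-fold above Tuft and 20.1-fold above EEC, and all of these were called. EEC was called below SecPDG (adjusted p = 0.0052) but lost that call without SecPDG 3 (0.023), SecPDG 4 (0.013) or EEC 2 (0.065), with the other scalings, with thinned counts, in a fit of these cell types alone and in DESeq2 (0.076).

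Within the absorptive line the steps of Aqp4 were not called. AbsPro was 1.73-fold above Stem (adjusted p = 0.54), and Ent was 1.76-fold above Stem (log2 fold change 0.81 ± 0.36, adjusted p = 0.045). The difference of Ent from Stem was called by DESeq2 (adjusted p = 0.0026), with its size factors, with library totals, in a fit of these cell types alone and after background reads were taken off, with log2 fold changes of 1.09 to 1.31. Over all genes with a mean of at least 50, TMM scaling put the median log2 fold change of Ent against Stem at -0.30, and DESeq2's size factors put it at 0.35, so each Ent difference has to be read against that shift. For EEC the medians were -0.30 and 0.48.

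Aqp8 was high in every enterocyte library and in 1 of the 2 EEC libraries. The Ent libraries had between 883 and 1395 normalized counts with a median of 1245. Stem libraries had 30.6, 162 and 19.5, AbsPro 84.1, 22.8 and 133, and the 5 Tuft libraries ran from 0 to 42.6 with a median of 39.1. Only 6 reads in all were on Aqp8 in SecPDG, 3 in each of libraries 2 and 4 and 0 in the others. Every Ent library was above every Stem, AbsPro, SecPDG and Tuft library.

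Aqp8 was 16.4-fold higher in Ent than in Stem (log2 fold change 4.04 ± 0.53, adjusted p = 3.1e-08), 15.3-fold higher than in AbsPro (adjusted p = 4.7e-07) and 52.8-fold higher than in Tuft (adjusted p = 7.2e-12). Over SecPDG the fitted fold was 749 (log2 fold change 9.55 ± 0.92, adjusted p = 3.8e-12), with the 6 reads above as its base. Of the Aqp8 level in SecPDG, 27.8% would be background by the estimate used for Aqp1. AbsPro and Stem were not called apart (adjusted p = 1.0), with means of 80.0 ± 55.3 and 70.7 ± 79.2 normalized counts. SecPDG was below Stem in every library, and its difference of -5.51 ± 1.59 on the log2 scale was not called (adjusted p = 0.018). DESeq2 (0.00054), the older quasi-likelihood form (0.0014) and fits without EEC 1 (0.0011) or EEC 2 (0.00087) called it.

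In EECs, the Aqp8 values came from 1 library. EEC 1 had 79.5 normalized counts, within the range of Stem and AbsPro, and EEC 2 had 2239, above every Ent library. The enterocyte markers differed in the same direction, with a sum of 21967 in EEC 1 and 132924 in EEC 2, and their part in the Aqp8 level of EEC 2 was not tested. With both libraries, Aqp8 was called 16.5-fold higher in EEC than in Stem (adjusted p = 2.1e-07) and also called higher than in AbsPro, SecPDG and Tuft. In a fit of EEC and Stem alone the call was lost (adjusted p = 0.012). Without EEC 2, the log2 fold change against Stem was 0.12 (adjusted p = 0.98), against AbsPro 0.02 (1.0) and against Tuft 1.81 (0.25). Without EEC 2, only the call against SecPDG stayed (adjusted p = 0.0098), and EEC then lay below Ent with a log2 fold change of -3.91 (adjusted p = 0.00036). In AbsPro the sum of the same 5 markers, which include the chloride and bicarbonate exchanger Slc26a3, was within or above the range of Ent. Aqp8 was at 133 or less there. Most of that sum was Car1. Of the means in AbsPro and Ent, Car1 (67469 and 36464) and Guca2a (5673 and 4847) were higher in AbsPro. Car4 (561 and 5246), Slc26a3 (2680 and 3825) and Krt20 (4000 and 9909) were lower there than in Ent.

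**Figure D3:**
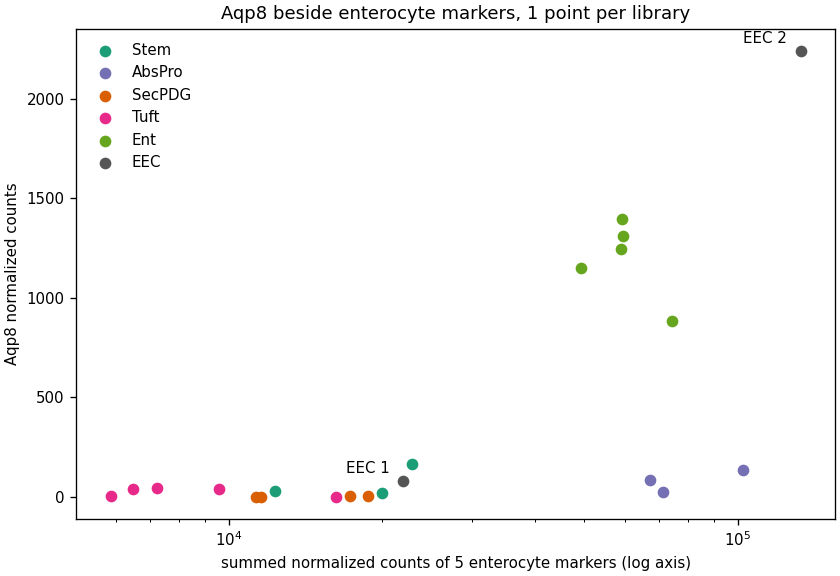
Aqp8 normalized counts (vertical axis) against the summed normalized counts of 5 enterocyte markers (Car1, Car4, Slc26a3, Krt20, Guca2a; horizontal log axis), 1 point per library. EEC 2 stands at the upper right (132924 and 2239) and EEC 1 with the Stem libraries (21967 and 79.5). AbsPro has a high sum, most of it Car1, with Aqp8 at 22.8 to 133.

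Aqp5, the water channel of salivary and tear glands, had few reads. It was at 0 in all 3 AbsPro libraries, where a count of 0 allows up to 3 reads per library, at 0 in 2 of the 3 Stem libraries and at 9.79 normalized counts or less in SecPDG. In Ent it ranged from 19.4 to 121, in Tuft from 0 to 97.3, and the EEC libraries had 134 and 4.85. Its mean over all libraries, 29.1 normalized counts, was under the minimum of 50, so no difference of it could be called.

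The aquaglyceroporins Aqp3 and Aqp7 were likewise below the minimum, with means of 33.0 and 37.4. Aqp3, the glycerol channel of skin and of the basolateral side of many epithelia, had 6, 0 and 0 reads in Stem and 1, 0 and 2 in AbsPro. In SecPDG 1 it had 163 reads (154 normalized counts), while SecPDG 2 to 4 had 1, 0 and 2 reads. EEC 1 held 129 reads and EEC 2 none. Aqp7, the glycerol channel of fat cells, was at 36.2 normalized counts or less in Stem, AbsPro and SecPDG, at 36.002 to 130.3 in Ent, and at 154 and 40.04 in EEC 1 and EEC 2.

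These 3 genes were read beside the background. EEC 1, with the highest background of all libraries, was the highest library for Aqp3 (233 normalized counts), Aqp5 (134) and Aqp7 (154). Ent 3 and Ent 1, next in background, had 46.2 and 67.3 of Aqp3, 110 and 121 of Aqp5 and 78.6 and 130.3 of Aqp7. AbsPro 2, with the lowest background, had no read of any of them, and SecPDG 1, with its high Aqp3, had a background of 67.9 CPM. From the background per kilobase, 23.98% of the Aqp3 level in Ent would be background, and 13.3 and 17.6% of the Aqp5 and Aqp7 levels there. For Aqp3 it would be 24.1% in Stem and 50.9% in AbsPro, and for Aqp5 20.3% in SecPDG, each on 11 reads or fewer in all. The part of the background in these levels was not tested further. Without the minimum mean, Aqp3 was called in 2 of the 15 comparisons and Aqp5 and Aqp7 in 4 each, and the minimum kept all of these out.

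**Figure D4:**
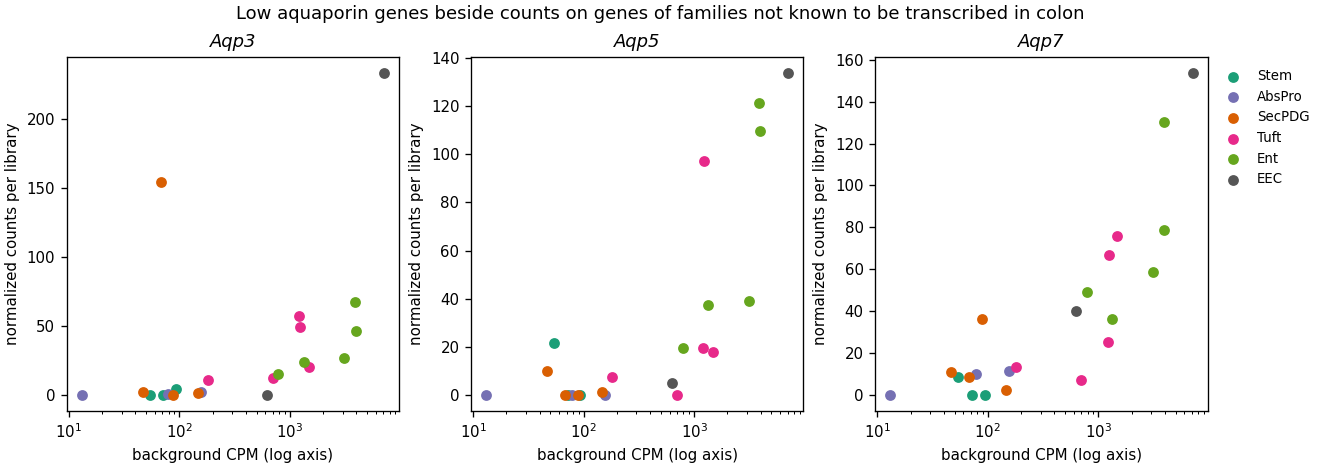
Normalized counts per library of Aqp3, Aqp5 and Aqp7 (vertical axes) against background CPM (horizontal log axes), 1 point per library, coloured by cell type. EEC 1, furthest to the right, is the highest in each panel, and SecPDG 1 stands apart for Aqp3 at 154.

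Aqp11 was present at a modest level in all 22 libraries and was highest in AbsPro. AbsPro libraries had 257, 303 and 358 normalized counts. Stem had 82.6, 135 and 192, SecPDG 98.3, 149, 95.2 and 169, and EEC 75.9 and 234. Ent ranged from 107 to 270.3 with a median of 169, and Tuft from 62.2 to 143 with a median of 101. Every AbsPro library was above every Stem, SecPDG, Tuft and EEC library, and 1 Ent library (270.3) was above AbsPro 1.

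The only called difference of Aqp11 was between Tuft and AbsPro, 2.94-fold lower in Tuft (log2 fold change -1.56 ± 0.39, adjusted p = 0.0034). This call was lost without AbsPro 2 (adjusted p = 0.014), with counts thinned to the smallest library (0.011), after background reads were taken off (0.016) and in the older quasi-likelihood form (0.028). Against Stem, AbsPro was 2.21-fold higher without a call (log2 fold change 1.14 ± 0.40, adjusted p = 0.20). DESeq2 called Aqp11 in 5 of the 15 comparisons, among them Ent above Stem (adjusted p = 0.0046) and Ent above Tuft (0.00013).

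Counted over the family, no member was called between AbsPro and Stem by edgeR's quasi-likelihood test, where 0.588% of all 22781 genes tested were called. DESeq2 called none there either, and 3 of the 7 had an unadjusted p under 0.05. SecPDG against Stem had 1 member called (Aqp4, lower) beside 4.98% of all genes, and Tuft against Stem 1 (Aqp4, lower) beside 12.1%. Ent against Stem had 2 called, Aqp8 higher and Aqp1 lower, beside 22.2% of all genes, and EEC against Stem 3, Aqp8 higher and Aqp1 and Aqp4 lower, beside 19.9%. With 7 genes, 1 gene more or less moves such a share widely, and nothing particular to the family is read from these counts. The 7 members passed the filter on low counts, but only Aqp1, Aqp4, Aqp8 and Aqp11 reached the minimum mean. Of the 27 calls over all 15 pairs of cell types, 10 were of Aqp4, 8 of Aqp1, 8 of Aqp8 and 1 of Aqp11. Among the pairs without Stem, Tuft against SecPDG had 0 members called by edgeR, 1 by DESeq2 and 1 at an unadjusted p under 0.05, beside 3.36% of all genes. There was 1 in SecPDG against AbsPro (3.72% of all genes) and 1 in EEC against Ent (4.71%), both Aqp4 and both lower. There were 2 in Tuft against AbsPro (8.13%), 2 in Ent against AbsPro (16.2%) and 2 in EEC against Tuft (9.29%). EEC against AbsPro (18.3%), Ent against SecPDG (23.4%), EEC against SecPDG (21.3%) and Ent against Tuft (8.44%) had 3 each.

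**Figure D5:**
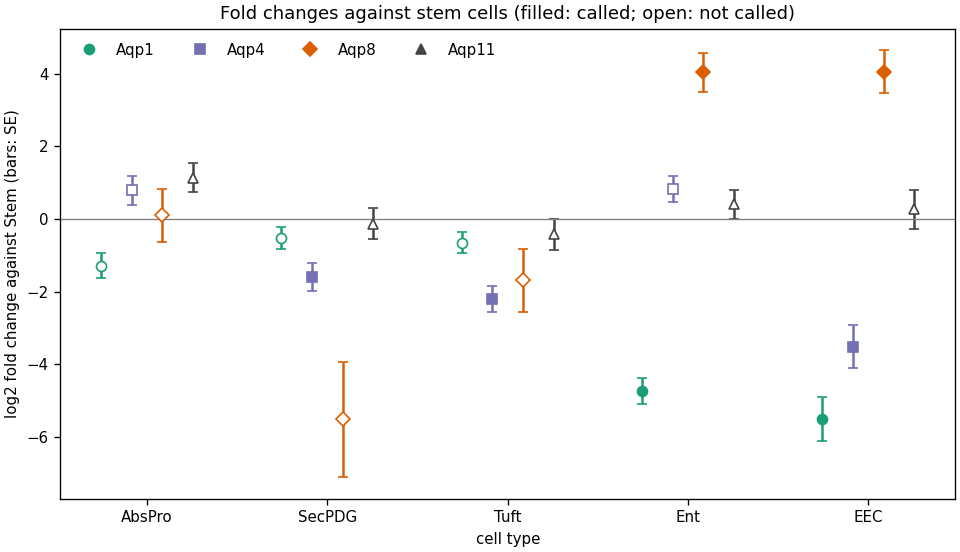
Log2 fold change against Stem (vertical axis) with its SE for Aqp1, Aqp4, Aqp8 and Aqp11 in the other 5 cell types, from 1 edgeR fit of all libraries, with filled symbols where the difference was called. Aqp1 is at -4.73 and -5.50 and Aqp8 at 4.04 and 4.05 in Ent and EEC, and Aqp4 is below 0 in SecPDG, Tuft and EEC.

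The other 5 aquaporin genes were at the low levels of Aqp3, Aqp5 and Aqp7 or below. Mip, the lens channel, had a mean of 27.2 normalized counts over the libraries, Aqp2, the vasopressin-regulated channel of the kidney, 15.2, Aqp6 15.4, Aqp9, a glycerol channel of the liver, 33.6, and Aqp12, a pancreatic member, 9.19. All were under the minimum of 50, so none of their 75 tests could be called by edgeR, and DESeq2 called none. In edgeR 37 of the 75 had an unadjusted p under 0.05, with no share of all genes taken beside it. The adjusted p of edgeR in Ent against Stem was 0.00026 for Aqp9, 0.0011 for Aqp6, 0.0012 for Mip and 0.0022 for Aqp2. For Aqp12 it was 0.044. Mip and Aqp2 had no read in any Stem or AbsPro library. Mip had 99 reads in SecPDG 1 and 7 or fewer in each other SecPDG library, and SecPDG 1 was also the library with the high Aqp3 count.

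Water follows salt, so 16 genes of ion transport were read beside the aquaporins. In Ent, 9 of the 16 were called higher and 5 lower than in Stem, with a median log2 fold change of 1.65, beside 22.2% of all genes called and a median of -0.30. The furthest were Atp12a, a colonic proton and potassium pump (log2 fold change 8.13 ± 0.53, from 13.005 ± 6.64 to 3572 ± 612 normalized counts), Slc9a3, the apical sodium and proton exchanger (6.45 ± 0.64), and Best2, an anion channel of goblet cells (4.69 ± 0.68). The goblet and deep crypt secretory markers also summed higher in Ent (237279 to 710443) than in Stem (21439 to 35063). Their part in the Best2 level was not tested. In SecPDG, 3 of the 16 were higher and 5 lower, with a median of -0.63, beside 4.98% of all genes called and a median of -0.06. Best2 rose from 12.3 ± 4.73 to 870.4 ± 360 and Scnn1a, a subunit of the epithelial sodium channel, from 415 ± 81.6 to 5241 ± 1915, while Slc26a3 fell from 564 ± 219 to 46.5 ± 30.8. AbsPro had 2 higher and 0 lower (0.588% of all genes called), Tuft 4 and 5 (12.1%), and EEC 6 and 5 (19.9%).

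Glycerol use, the metabolic side of the aquaglyceroporins, was read from 7 genes of glycerol and glycerol phosphate enzymes. Of these, beside 22.2% of all genes called in either direction, 1 was called higher and 0 lower in Ent than in Stem. It was Gyk, the glycerol kinase, at 181 ± 126 normalized counts in Stem (n = 3) and 671 ± 432 in Ent (n = 5), with a log2 fold change of 1.87 ± 0.40 (adjusted p = 0.00018). In AbsPro 0 of 7 were called by edgeR, beside 0.588% of all genes, or by DESeq2, and 0 had an unadjusted p under 0.05. In SecPDG 0 were called by edgeR, beside 4.98% of all genes, with 4 at an unadjusted p under 0.05, and 1 by DESeq2. In Tuft 1 was called lower, beside 12.1% of all genes called in either direction, and in EEC 1, beside 19.9%.

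The genes whose levels ran most like those of each member were taken by Pearson's r over the 22 libraries, among 13188 genes. For Aqp1 they were Cd44 (r = 0.960), the adhesion receptor by which the cells were sorted, Ephb2 (0.956), a receptor that guides cell position in crypts, and Smo (0.951), the hedgehog signal transducer. For Aqp4 they were Plce1 (0.933), a phospholipase C, Slc1a1 (0.911), a glutamate transporter, and Eif4ebp3 (0.901), an inhibitor of translation initiation. Aqp8 ran most like Phlpp2 (0.925), a phosphatase of Akt, Sptssb (0.917), a subunit of serine palmitoyltransferase, and Trpm6 (0.911), a magnesium channel. The values for Aqp11 were lower, with Akr1c14 (0.881), Map2k1 (0.878) and Atp2b1 (0.870), a calcium pump. Among the members, Aqp1 and Aqp8 ran opposite to each other (r = -0.838), and Aqp4 and Aqp11 had r = 0.532. The 22 libraries are of only 6 sorted cell types and differ in depth and background, so these values are a description. Spearman's rho picked other genes for Aqp1, Aqp4 and Aqp8 and shared 1 of 3 for Aqp11.

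The 3' ends of 2 members were also measured, as the share of transcripts that end at the distal polyadenylation site. For Aqp4 the share was 0.297 ± 0.0208 in Stem (n = 3), 0.337 ± 0.0416 in AbsPro (n = 3), 0.354 ± 0.0684 in Ent (n = 5), 0.365 ± 0.0843 in SecPDG (n = 4) and 0.312 ± 0.111 in Tuft (n = 5). Stem libraries were at 0.28 to 0.32, and the libraries of each other cell type overlapped them, with 0.17 to 0.44 in Tuft as the widest range. For Aqp1 every AbsPro, SecPDG and Tuft library was at 1.00, as were the Stem libraries other than 1 at 0.95 in the table with AbsPro. No test was run, and the depth behind these shares is unknown.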

How the data were processed

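Messenger RNA was measured in 22 libraries of sorted colon crypt cells, grouped by their deposited labels. The authors aligned reads to mm10 with STAR 2.5.2a and counted them on genes with HTSeq 0.6.1p1, without regard to strand, and deposited raw counts. The deposited fraction of distal polyadenylation site use was estimated by the authors with DaPars, for each cell type against Stem, with libraries that cannot be tied to those of the counts. Tables of skipped exons and local splicing variations were not used here. The DaPars tables also hold the authors' own differences and p-values, which were not used.

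The test was edgeR 4.0.16 in R 4.3.3, by glmQLFit and glmQLFTest after filterByExpr with TMM scaling, in 1 fit of 22 libraries with cell type as the only term. The 15 pairs of cell types were each adjusted by Benjamini-Hochberg over 22781 genes. A gene was called at an adjusted p under 0.01 with a mean of at least 50 normalized counts (counts over effective library size, times the mean effective size). The SE is the log2 fold change over the root of F. The 5 entries that name no gene were left out. They held 53.9 to 58.6% of each library in Stem, AbsPro and SecPDG and 54.1 to 74.0% in Tuft. In Ent they held 72.7 to 86.0% and in EEC 70.7 to 91.6%. This share runs with cell type, so its part in the Ent and EEC differences cannot be told apart. Libraries of a cell type are from independent mice or pools, no label gives a batch, and the limit that a count of 0 allows covers counting error only. Exon lengths of the GENCODE annotation were found for 24044 of 24421 genes. Background is the reads per kilobase on 1525 of the 1539 background genes with a length, times a gene's length. The members and lists were chosen with earlier results of these data known. Named are the 7 members, the other aquaporins, the 3 genes most like each abundant member, and of the ion and glycerol lists the 3 called genes that changed most in Ent and SecPDG. Alternatives were DESeq2 1.42.0, other scalings, no filter, no minimum mean, an adjusted p under 0.05, a fit of 2 cell types, thinned counts, a replicate block, each library left out and, chosen after seeing the data, the older quasi-likelihood form and background reads taken off. Summaries used Python 3.11.15, pandas 2.3.3 and numpy 2.4.6, and figures matplotlib 3.10.9.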

Additional observations from a re-analysis of the deposited data

Results flagged for a closer look

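Of 21 sets of 4 or 5 libraries, each 1 member in 1 cell type, 3 had a library whose gap to the nearest other was above Dixon's 95% value. Chance gives this in about 1 in 20 for normally distributed values. Counts near 0 are not so distributed, so that rate does not hold for them. Aqp3 in SecPDG 1 was at 154 normalized counts, against 0 to 1.959 in the other 3. Aqp5 in SecPDG 4 was at 9.79, which is 10 reads, against 0 to 1.24. Aqp5 in Tuft 3 was at 97.3, against 0 to 19.6 in the other 4.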

How the results depend on the processing

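Of 1979 recomputed log2 fold changes of Aqp1, Aqp4, Aqp8 and Aqp11, 1879 kept their direction and side of the threshold, 36 became called, 21 lost a call and 43 changed direction. Aqp1 in Ent and EEC against Stem, Aqp4 in Tuft and EEC against Stem and Aqp8 in Ent against Stem kept their calls under every alternative.

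Called members in Ent against Stem were 4 with DESeq2, with its size factors, with library totals and with no minimum mean, and 5 in the fit of 2 cell types, in place of 2. In SecPDG they were 2 with DESeq2, at an adjusted p under 0.05 and with the replicate block, in EEC 5 with no minimum mean, and in AbsPro 1 at an adjusted p under 0.05, in the fit of 2 cell types and with background taken off. Leaving out 1 library gave 0 to 1 in AbsPro, 0 to 2 in SecPDG, 1 in Tuft, 2 in Ent and 2 to 3 in EEC. Comparisons called for Aqp11 were 5 with DESeq2, 4 with its size factors, 3 with library totals, 2 at an adjusted p under 0.05, 0 with thinned counts, the older form or background taken off, and 0 to 3 without 1 library. For Aqp7 they were 5 with DESeq2's size factors, 4 with library totals or no minimum mean and 2 in the fit of 2 cell types, for Aqp5 4 with no minimum mean and 1 in the fit of 2 cell types, and for Aqp3 2 with no minimum mean. Without 1 library they were 8 to 9 for Aqp1, 9 to 10 for Aqp4, 8 to 10 for Aqp8 and 0 for Aqp3, Aqp5 and Aqp7. Most similar genes by Spearman's rho shared 0 of 3 for Aqp1, Aqp4 and Aqp8 and 1 of 3 for Aqp11. Fewer members reach the minimum mean than could pass the adjusted p, and the cause of the other changes was not tested. No share of all genes called was taken under these alternatives, so nothing about the members is read from these counts. Among genes at the minimum mean, the median log2 fold change of Ent against Stem also moved with the scaling. It was -0.30 with TMM, 0.35 with DESeq2's size factors and 0.24 with library totals.

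The changes of direction were in differences that were not called in the fit of all libraries. Aqp8 in EEC against Ent was -0.33 with DESeq2, -0.13 with its size factors, -0.38 with library totals, -0.0478 with no filter, -0.17 in the fit of 2 cell types, -0.21 with thinned counts, -0.61 with the replicate block, -0.0438 in the older form, -0.28 with background taken off and -3.91 to 0.90 without 1 library. Aqp1 in Tuft against SecPDG was 0.0193 with DESeq2 and 0.0170 with its size factors, 0.0874 with library totals and 0.0442 with background taken off. With thinned counts Aqp8 was -2.49 in AbsPro against Stem and 1.32 in Tuft against AbsPro, and Aqp11 0.33 in SecPDG against Stem and -0.0819 in EEC against SecPDG. With the replicate block Aqp4 was -0.20 in Ent against AbsPro and Aqp11 0.18 in EEC against Ent. Without 1 library, Aqp4 in Ent against AbsPro ran from -0.37 to 0.20, Aqp1 in EEC against Ent from -2.09 to 0.12, Aqp8 in AbsPro against Stem from -0.37 to 1.69, and Aqp11 from -0.37 to 0.21 in SecPDG against Stem and, in EEC, from -0.86 to 0.61 against Stem, -0.73 to 0.68 against SecPDG, -0.45 to 1.04 against Tuft and -1.27 to 0.38 against Ent. With 1 EEC library left, it is assumed to vary like the other cell types.

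No label says whether same-numbered libraries of different cell types share mice. Of 44 such pairs, 14 had a correlation of deviations over 0.1, in a range of -0.39 to 0.50. With their own number, 6 of 22 libraries correlated best. Pairs of unlike numbers were not set beside these values, so they cannot decide whether the libraries are paired. With the replicate block the called members were 0, 2, 1, 2 and 3 in AbsPro, SecPDG, Tuft, Ent and EEC against Stem. Aqp3, Aqp5 and Aqp7 in Stem and AbsPro had at most 34 reads per library and Aqp8 in SecPDG at most 3, so small differences there were not detectable at this depth.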
